A study of Mus musculus with 6 samples.

Results

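Of 22027 genes measured in mouse gastrocnemius (GAS) muscle, 61 formed a set with consistently higher levels in muscle with knockdown of the methylcytosine dioxygenase Tet3 (mKD) than in wild-type (WT) muscle. A gene was a member when its normalised count averaged at least 50 over the 6 libraries, every mKD library exceeded every WT library, and the mKD mean exceeded the WT mean by at least 75%. Of the 65 genes that met these values, 4 (Eif4ebp1, S100b, Retn and Cfd) were named by the rule as left out, as were Angptl4 and Cox6a1, which did not meet them. A normalised count is the number of reads on a gene divided by the size factor of its library. The difference between mKD and WT therefore chose the members, and their levels are given as a description, without a test.

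The mKD mice (n = 3) carried a floxed Tet3 allele together with HSA-Cre79, a Cre recombinase driven by the human α skeletal actin promoter, and the WT mice (n = 3) were littermates with the same floxed allele and no Cre. All were 14-week-old females on regular chow, and 1 GAS muscle library was made from each mouse. Cre from this promoter is known to be made in muscle fibres. The nerve, fat, vascular and connective tissue cells in the same piece of muscle are not its targets, and Tet3 was not measured by cell type. The labels also give a time of 48 h for every sample, without saying what it refers to. The libraries held 28050939 to 32148270 reads in mKD muscle and 16219227 to 26705724 in WT muscle, the lowest being WT library 1.

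Tet3 had 425, 318 and 472 normalised counts in the 3 mKD libraries, against 594, 536 and 708 in the WT libraries, a log2 fold change of -0.60 (SE 0.18), and reads on Tet3 remained in every mKD library. Muscle fibre genes were abundant in all 6 libraries: the summed count of 10 muscle fibre markers was 5294956 to 6415186 in mKD muscle and 5167723 to 6515278 in WT muscle.

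Tet3 encodes an enzyme that oxidises 5-methylcytosine in CpG dinucleotides, the first step in the active removal of DNA methylation. Skeletal muscle is made of multinucleated fibres held in a collagen-rich matrix and supplied by vessels and myelinated nerves, and it is a main site of glucose disposal under insulin. A gene that is higher in RNA from whole muscle may be expressed in fibres or in any of these other cells.

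The members did not belong to 1 pathway. By their best known roles (assigned after their values were known), 14 act in metabolism and transport, 10 in the matrix or at the cell surface, 7 in receptors and signalling, 7 in the nucleus or on DNA and RNA, 6 in membrane traffic and lysosomes and 4 in nerve and synapse. A further 7 were copies of other genes, fusions or clone names, and 6 had other roles. The heat map of members by role shows 60 of them in each library.

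**Figure D1:**
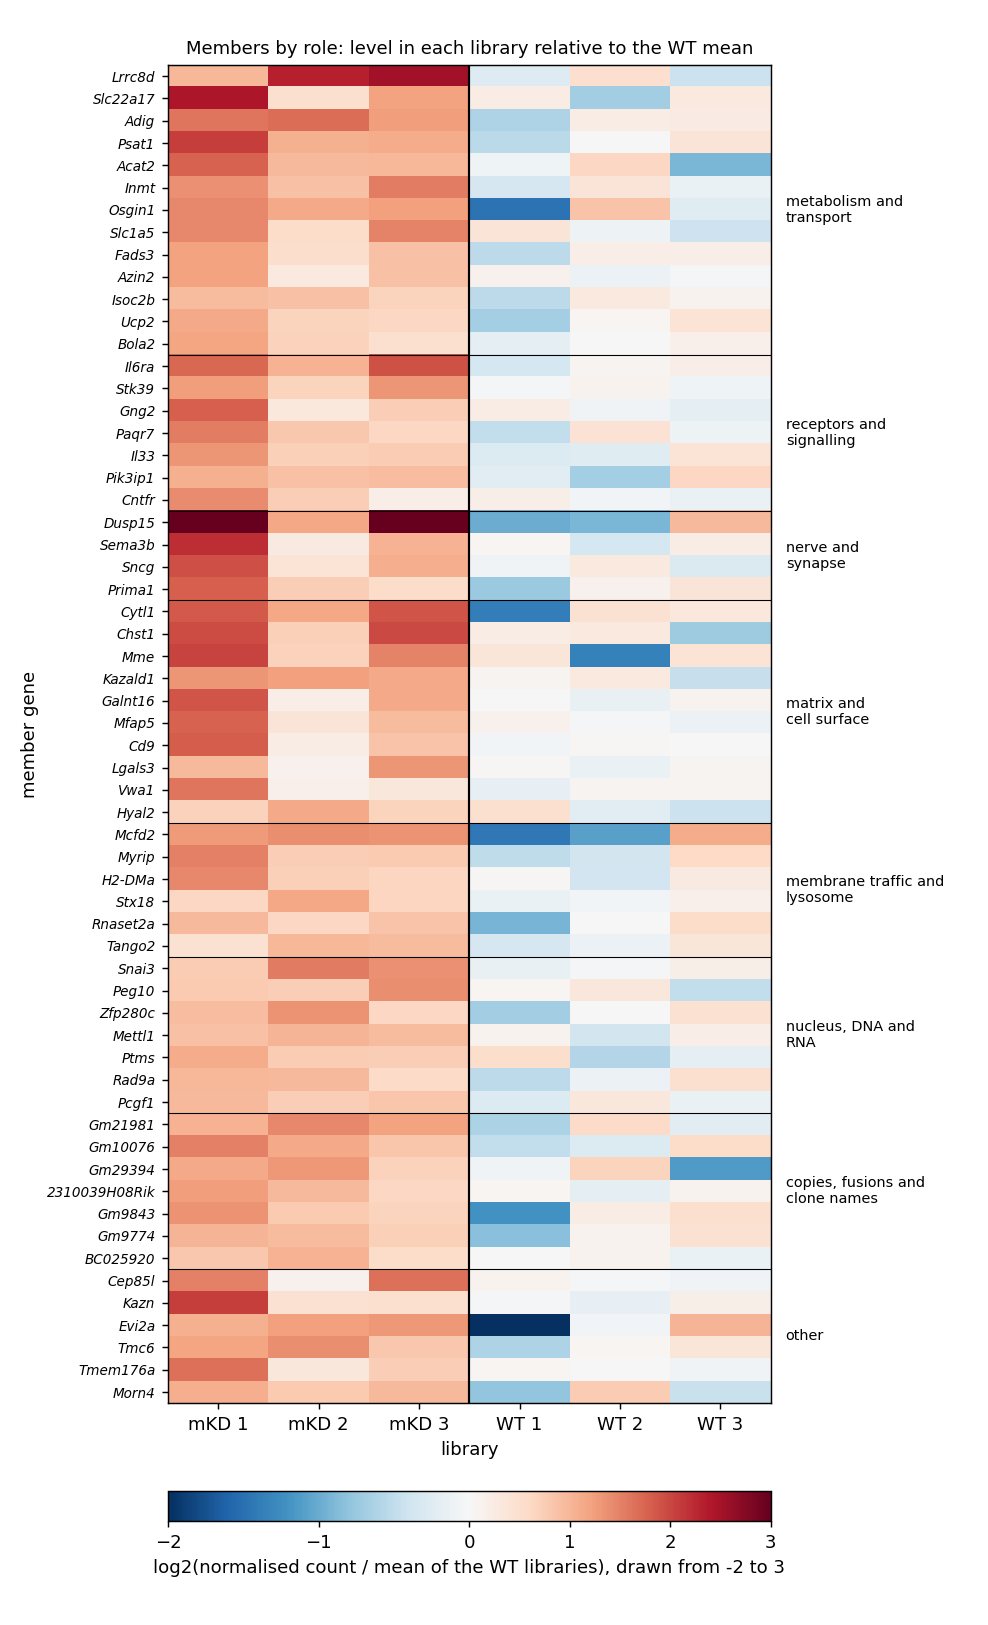
Normalised count of 60 of the 61 members (rows, grouped by role) in each library (columns, mKD 1 to 3 then WT 1 to 3), as log2 of its ratio to the mean of the WT libraries, with colours drawn from -2 to 3 and values beyond that range at the end colours. Red fills the mKD columns by construction, mKD library 2 is the palest of the 3 in 3 of the 4 nerve and 8 of the 10 matrix members, and Evi2a has no read in WT library 1.

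The mKD mean was 1.76 to 16 times the WT mean, with a median over the members of 2.12. It was at least 2 times the WT mean in 36 members, at least 3 times in 7 and at least 4 times in 3, among them Dusp15 and Lrrc8d. The median log2 fold change of the members was 1.07 (range 0.70 to 3.40), beside 0.0096 over the 12322 genes that passed the filter on low counts. Every member passed that filter.

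Because the rule used this contrast, nothing is read from the number of members past a threshold. At 1.2-fold and an unadjusted p under 0.05 by limma, 58 members passed (all but Kazn, Evi2a and Vwa1), beside 8.31% of all genes tested. At a Benjamini-Hochberg adjusted p under 0.05 limma called 0 members, beside 0.0162% of all genes in either direction, edgeR also called 0, and DESeq2 on the recovered reads called 26, beside 1.70% of the genes with a DESeq2 adjusted p that it called higher and 4.91% that it called in either direction. Every mKD library lay above every WT library in 12.1% of all genes tested, and in 13.3% of the genes with a mean of at least 50.

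The members were not abundant transcripts. Their mean over the 6 libraries had a median of 122 normalised counts, against 321 for all genes tested, and was under 100 in 25 members, between 100 and 500 in 27 and at least 500 in 9. Per kilobase of longest annotated transcript, the highest mean levels in mKD muscle were 884 normalised counts per kb for Gm9843, 831 for Ptms and 667 for Cd9, against 456, 449 and 307 in WT muscle.

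The 3 limits of the rule fell within a continuous run of values. Just inside the excess of 75% stood Bola2 and BC025920 (mKD mean 1.76 times the WT mean in both), Tango2, Rnaset2a and Stx18 (1.77 each) and Ucp2 (1.78). Just outside it stood Irak1bp1 (1.749) and Gemin2 (1.746), Gemin4, Spns2, Nme1 and Igfbp6 (1.74). The members nearest to the mean of 50 were Myrip, Slc22a17, Morn4, H2-DMa, Chst1 and Peg10, at 51.9 to 55.2, and outside it Mks1, Baiap2, Trmt10a, Tmem238 and Prkar2b had means of 44.3 to 49.4. In Cep85l, Gm29394, Morn4, Cntfr, Evi2a and Lgals3 the lowest mKD library was only 1.02 to 1.03 times the highest WT library. Mettl18, Nudt18, Fbp2, Ankrd6, Il16 and Cyp2e1 missed the set because that quotient was 0.951 to 0.997.

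Over all members, the lowest mKD library was 1.02 to 2.0 times the highest WT library, with a median of 1.21. It was under 1.1 times in 14 members and at least 1.5 times in 7. A mean excess of 75% therefore did not always come with a wide gap between the groups.

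The mKD libraries did not contribute equally. Expressed as a multiple of the WT mean, the members had a median level of 2.52, 1.72 and 1.91 in mKD libraries 1, 2 and 3, against 0.88, 1.01 and 1.12 in WT libraries 1, 2 and 3. The level exceeded the WT mean by at least 75% in 55 members in mKD library 1, in 30 in mKD library 2 and in 38 in mKD library 3, and in all 3 of them in 18 members. The plot of the members in each library shows this order.

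**Figure D2:**
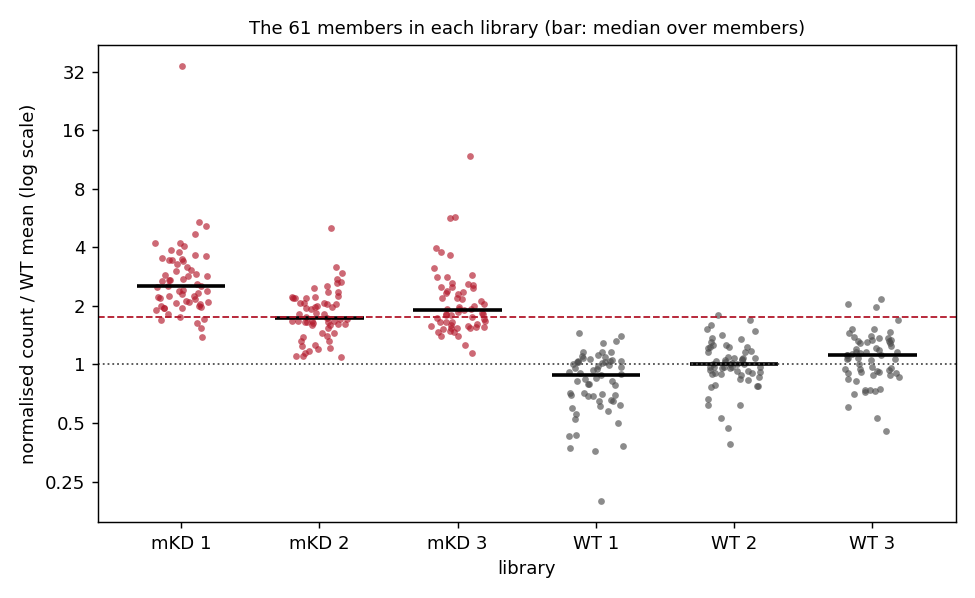
Each point is 1 of the 61 members in 1 library, as its normalised count over its mean in the WT libraries on a log axis, with mKD in red and WT in grey; black bars are medians over members, the dashed line is a 75% excess and the dotted line 1. The medians are 2.52, 1.72 and 1.91 in the mKD libraries and 0.88, 1.01 and 1.12 in the WT libraries; the 0 of Evi2a in WT library 1 is drawn at 0.2.

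mKD library 1 was the highest of the mKD libraries in 37 members, where it was the highest in 30.8% of the genes tested with a mean of at least 50, and mKD library 2 was the lowest in 33 members, against 32.8% of those genes. The order mKD 1, mKD 3, mKD 2 from high to low was shown by 23 members (37.7%), against 16.3% of those genes. Without mKD library 1, 31 of the 61 genes still met the rule. Without mKD libraries 1 and 3, a setting chosen after seeing the data, 24 did.

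By the ratio of the highest to the lowest mKD library, 20 members were uneven (2 or more) and 21 were even (under 1.5), with a median over all members of 1.61 beside 1.27 for genes of a mean of at least 50. In the WT libraries the same ratio had a median of 1.77 over the members that had reads in all 3, beside 1.30. The uneven members had median levels of 3.60, 1.35 and 2.14 times the WT mean in mKD libraries 1, 2 and 3, and mKD library 2 was the lowest in 17 of them. The even members had medians of 2.07, 2.04 and 1.82, and WT library 1, the shallowest, was the lowest WT library in 15 of the 21, with a median of 0.69 times the WT mean.

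**Figure D3:**
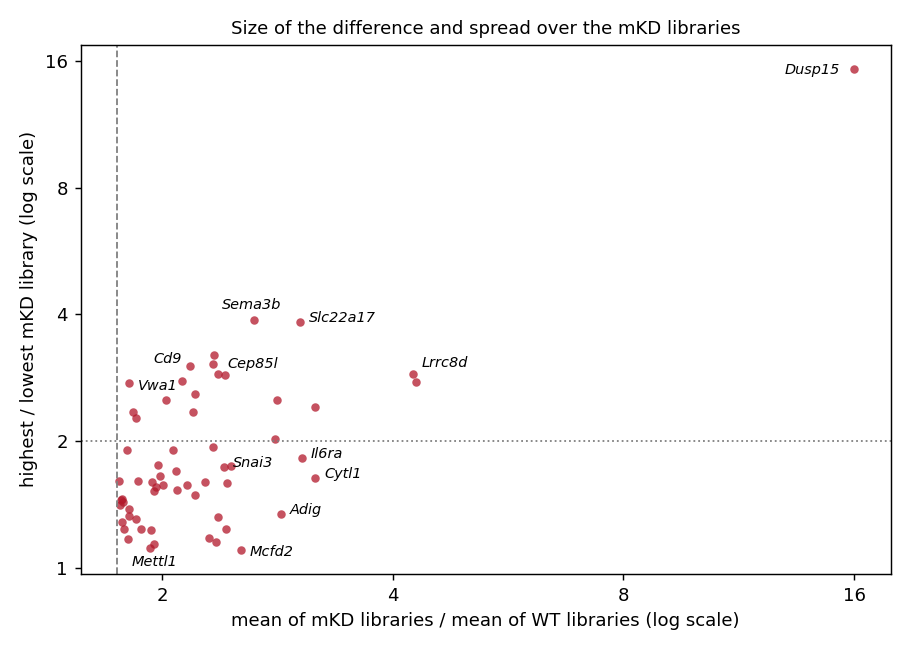
Each point is 1 member, placed by the ratio of the mKD mean to the WT mean (x axis, log scale) and by the ratio of the highest to the lowest mKD library (y axis, log scale); the dashed line is the rule's excess of 75% and the dotted line is 2. Dusp15 stands alone at 16 and 15.3, and 41 members lie below the dotted line.

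The markers of other cell types moved between the mKD libraries as well. Of 12 Schwann cell and nerve markers (Mbp, Pmp22, Prx, Sox10 and others), none was at 0 in every library. Their summed count was 40157, 1912 and 12523 in mKD libraries 1, 2 and 3, against 2500 to 2545 in the WT libraries. At the 1.2-fold threshold 3 of the 12 (Mal, S100b and Mag) were higher, beside 8.31% of all genes tested. Over these 12 markers the median log2 fold change was 2.09, and -0.42 without mKD libraries 1 and 3.

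The 10 adipocyte markers had a median log2 fold change of 2.59, against 0.0096 over all genes tested, and of 0.81 without WT library 3 and 1.70 with DESeq2. Of the 10, Retn and Cfd were higher at the 1.2-fold threshold, beside 8.31% of all genes tested. The sum of the 10, carried by Car3, which muscle also expresses strongly, was 123499 to 171290 in mKD muscle and 134489 to 149886 in WT muscle. Cfd, an adipokine also known as adipsin, had 3771, 771 and 2822 normalised counts in mKD muscle, against 706, 568 and 13.9 in WT muscle. Adipoq, adiponectin, had 718, 155 and 495 in mKD muscle, against 247, 149 and 0 in WT muscle. In both, mKD libraries 1 and 3 were highest and WT library 3 lowest. Adipoq, Retn, Plin1, Cidec and Lep all had 0 reads in WT library 3. The list did not move as a whole. Fabp4 had 3978, 4780 and 3862 in mKD muscle, against 3396, 3820 and 4244 in WT muscle. Plin4 also had its highest WT level, 13067, in WT library 3, and Car3 had a log2 fold change of -0.08 (SE 0.16).

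The 8 slow fibre markers summed to 50785, 141947 and 52175 in mKD libraries 1, 2 and 3, against 84732, 6819 and 209597 in WT libraries 1, 2 and 3, with WT library 2 far below the others. Their median log2 fold change was 0.74, and -0.14 with DESeq2, and none passed the threshold. The 8 endothelial markers summed to 6287 to 8080 in mKD muscle and 10928 to 12419 in WT muscle. At the 1.2-fold threshold 5 of the 8 were lower, beside 9.51% of all genes tested. In bulk muscle, more cells of a type and more RNA per cell cannot be told apart, and the part of these cell types in the members' levels was not tested.

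The nerve and synapse group had the widest spread. Dusp15 (chromosome 2, 152940997 to 152951698), a phosphatase known from myelinating glia, had 322, 21.0 and 111 normalised counts in mKD libraries 1, 2 and 3, against 4.75, 5.02 and 18.6 in the WT libraries. The lowest mKD library lay just above the highest WT library, and the log2 fold change of 3.40 (SE 0.96) was 1.32 without mKD libraries 1 and 3. These levels had the same order over the mKD libraries as the sum of nerve markers, and as Adipoq and Cfd. Leaving out mKD libraries 1 and 3 keeps only mKD library 2. Results of that setting are given by gene only where mKD library 2 was the lowest mKD library. Smaller fold changes there follow from this choice of genes.

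Sema3b, a secreted semaphorin that guides axons, had 1826, 471 and 802 normalised counts in mKD muscle, against 410, 308 and 456 in WT muscle. Sncg, the γ-synuclein of peripheral neurons, had 586, 204 and 327 in mKD muscle, against 147, 189 and 126 in WT muscle. Both were led by mKD library 1, and mKD library 2 was within 1.1 times the highest WT library. Without mKD libraries 1 and 3 their log2 fold changes were 0.29 for Sema3b and 0.42 for Sncg, beside 1.19 (SE 0.44) and 1.16 (SE 0.36) over all libraries. Prima1, which anchors acetylcholinesterase in the membrane of neural cells, had 137, 66.2 and 58.2 in mKD muscle, against 23.8, 43.1 and 52.1 in WT muscle, and its lowest mKD library was 1.12 times the highest WT library.

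**Figure D4:**
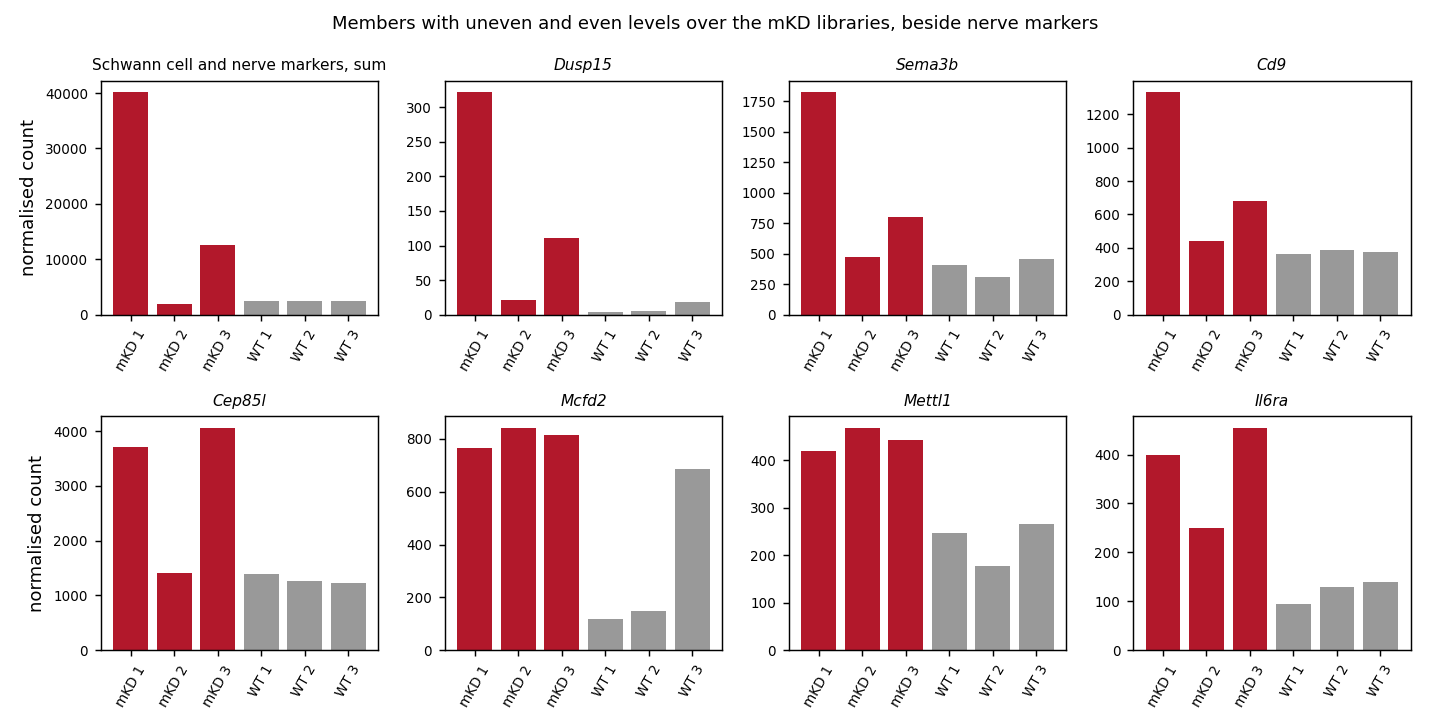
Bars are normalised counts in mKD libraries 1 to 3 (red) and WT libraries 1 to 3 (grey) for the sum of 12 Schwann cell and nerve markers and for 7 members, each panel with its own axis from 0. Dusp15, Sema3b and Cd9 follow the order of the nerve markers, an order shown by 23 members in all and by Adipoq and Cfd. Cep85l is high in mKD libraries 1 and 3. Mcfd2 and Mettl1 are level over the mKD libraries, and the WT library 3 of Mcfd2 stands near them.

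The metabolic members had a median ratio of 2.43. Acat2, the cytosolic acetoacetyl-CoA thiolase at the start of sterol synthesis, had 162, 92.8 and 93.8 normalised counts in mKD muscle, against 44.3, 72.2 and 25.1 in WT muscle. Ucp2, a carrier of the inner mitochondrial membrane, had 423, 303 and 295 in mKD muscle, against 119, 200 and 255 in WT muscle, where WT library 1 was low.

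Adig, adipogenin, is a small membrane protein of fat cells that takes part in lipid storage. It had 133, 140 and 104 normalised counts in mKD muscle, against 28.5, 51.2 and 52.1 in WT muscle. Its lowest mKD library was 2.0 times its highest WT library, the widest gap of the 61, and it differed in its order over the libraries from Cfd and Adipoq: it was highest in mKD library 2, and in WT library 3, where Adipoq was at 0, it had 52.1. The median log2 fold change of the adipocyte markers was 2.59, and their part in the level of Adig was not tested. Fads3, a member of the fatty acid desaturase family, had 185, 115 and 146 in mKD muscle, against 55.4, 92.3 and 92.0 in WT muscle.

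Several members handle amino acids and their derivatives. Psat1, the aminotransferase of serine synthesis, had 125, 62.1 and 64.7 normalised counts in mKD muscle, against 20.6, 30.1 and 39.0 in WT muscle. Slc1a5, the transporter of glutamine and other neutral amino acids, had 626, 337 and 652 in mKD muscle, against 304, 216 and 173 in WT muscle. Inmt, a methyltransferase of indoleamines, had 485, 344 and 545 in mKD muscle, against 149, 245 and 171 in WT muscle. The groups stood apart in each of the 3, as the rule requires, most narrowly in Slc1a5, where mKD library 2 was close to WT library 1. Azin2, which relieves the inhibition of ornithine decarboxylase by antizyme, had 111, 58.1 and 88.2 in mKD muscle, against 52.3, 44.1 and 46.5 in WT muscle.

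Osgin1, a gene induced by oxidative stress, had 574, 466 and 495 normalised counts in mKD muscle, against 76.0, 379 and 179 in WT muscle. Its mKD libraries agreed closely and its WT libraries spread 4.99-fold. Lrrc8d, a subunit of the volume-regulated anion channel, had 45.0, 114 and 129 in mKD muscle, against 19, 32.1 and 16.7 in WT muscle, and was the only uneven member in which mKD library 1 was the lowest. Slc22a17, known as a receptor for lipocalin-2, had 139, 36.3 and 60.1 in mKD muscle, against 30.1, 16.1 and 31.6 in WT muscle. Its order over the mKD libraries was that of the nerve markers, of Adipoq and Cfd, and of 16.3% of the genes tested with a mean of at least 50. Isoc2b, an isochorismatase domain protein, and Bola2, which works with glutaredoxin in iron handling, were near the lower limit, at ratios of 1.78 and 1.76.

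Among the receptors, Il6ra (chromosome 3, 89864059 to 89913196), which binds interleukin-6 before it signals through gp130, had 399, 250 and 455 normalised counts in mKD muscle, against 95.0, 128 and 139 in WT muscle. Its mKD mean was 368 ± 106 and its WT mean 121 ± 23.1 (SD, n = 3 each), with the lowest mKD library well above the highest WT library. Cntfr, the receptor subunit for ciliary neurotrophic factor, which signals through the same gp130 family, had 741, 456 and 316 in mKD muscle, against 309, 266 and 251 in WT muscle. Here mKD library 3 was level with WT library 1.

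Pik3ip1, a membrane protein that restrains phosphoinositide 3-kinase, had 1230, 1080 and 1120 normalised counts in mKD muscle, against 499, 364 and 895 in WT muscle. The mKD libraries were even (1.14-fold between the highest and the lowest) and the WT libraries were not (2.46-fold). Il33, the nuclear alarmin cytokine, had 111, 72.6 and 75.1 in mKD muscle, against 36.4, 37.1 and 58.6 in WT muscle. Stk39, the kinase SPAK that regulates cation-chloride cotransporters, Gng2, a G-protein γ subunit, and Paqr7, a membrane progestin receptor, had ratios of 2.16, 2.12 and 2.07.

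Of the 10 matrix and cell surface members, 7 were uneven and 8 had their lowest mKD level in library 2. Mme, the peptidase neprilysin, had 145, 58.1 and 100 normalised counts in mKD muscle, against 45.9, 14 and 47.4 in WT muscle. Cytl1, a small secreted protein of cartilage and other connective tissue, had 134, 83.9 and 137 in mKD muscle, against 14.3, 51.2 and 46.5 in WT muscle. Chst1, a keratan sulphate sulphotransferase, had 101, 42.8 and 103 in mKD muscle, against 30.1, 32.1 and 15.8 in WT muscle. mKD library 2 was the lowest mKD library in each of these 3, and above the WT libraries, as the rule requires.

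Cd9, a tetraspanin found on Schwann cells, muscle and many other cells, had 1331, 442 and 682 normalised counts in mKD muscle, against 364, 387 and 378 in WT muscle. Mfap5, a microfibril-associated glycoprotein of elastic fibres, had 529, 204 and 298 in mKD muscle, against 171, 151 and 144 in WT muscle. The WT libraries were nearly level in both, and mKD library 2 was 1.14 times the highest of them for Cd9 and 1.19 times for Mfap5. Over all libraries the log2 fold changes were 0.97 (SE 0.35) for Cd9 and 1.03 (SE 0.32) for Mfap5. Without mKD libraries 1 and 3, the higher ones in both genes, they were by arithmetic smaller, 0.23 for Cd9 and 0.39 for Mfap5. Galnt16, a mucin-type O-glycosyltransferase, Vwa1, a pericellular matrix protein, and Lgals3, galectin-3, also had mKD library 2 within 1.1 times the highest WT library, and Galnt16 and Lgals3 had log2 fold changes of 0.20 and 0.14 without mKD libraries 1 and 3.

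Kazald1, a secreted protein related to the insulin-like growth factor binding proteins, was the most even of this group. It had 297, 277 and 258 normalised counts in mKD muscle, against 125, 143 and 85.5 in WT muscle, means of 277 ± 19.7 and 118 ± 29.6 (SD, n = 3 each). Hyal2, a hyaluronidase of the cell surface, had 233, 315 and 229 in mKD muscle, against 200, 123 and 106 in WT muscle.

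Members of the membrane traffic and lysosome group were mostly even in mKD muscle, with a median spread of 1.45-fold. Mcfd2 (chromosome 17, 87254443 to 87265935), which with the lectin LMAN1 carries coagulation factors from the endoplasmic reticulum to the Golgi, had 766, 843 and 814 normalised counts in mKD muscle, against 119, 149 and 687 in WT muscle. WT library 3 was near the mKD libraries and more than 4 times the other WT libraries. Tango2, whose loss in humans causes episodes of muscle breakdown, had 1082, 1570 and 1514 in mKD muscle, against 619, 724 and 1009 in WT muscle. Stx18, a SNARE protein of the endoplasmic reticulum, had 228, 332 and 232 in mKD muscle, against 136, 143 and 166 in WT muscle. H2-DMa, which loads peptides on MHC class II molecules, Myrip, which links Rab27 to myosin, and Rnaset2a, a lysosomal ribonuclease, had ratios of 1.98, 2.09 and 1.77.

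The nuclear group had no uneven member, a median spread over the mKD libraries of 1.33-fold and a median ratio of 1.93. Snai3, a zinc-finger repressor of the SNAIL family, had 488, 847 and 750 normalised counts in mKD muscle, against 260, 281 and 325 in WT muscle. Mettl1, the methyltransferase that places 7-methylguanosine in tRNA, had 420, 469 and 442 in mKD muscle, against 247, 178 and 266 in WT muscle. Its mKD libraries were within 1.12-fold of each other. Rad9a, a part of the DNA damage clamp, had 141, 139 and 106 in mKD muscle, against 49.1, 65.2 and 98.6 in WT muscle, where WT library 3 was close to mKD library 3.

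Pcgf1, a subunit of a polycomb complex that marks unmethylated CpG islands, had 169, 145 and 155 normalised counts in mKD muscle, against 71.3, 109 and 79.0 in WT muscle. Ptms, parathymosin, had 1123, 882 and 860 in mKD muscle, against 749, 345 and 455 in WT muscle. Peg10, an imprinted gene derived from a retrotransposon, had 63.1, 61.3 and 96.6 in mKD muscle, against 38.0, 46.1 and 26.0 in WT muscle. Zfp280c, a zinc-finger protein encoded on the X chromosome, had a ratio of 1.99. The groups did not overlap in these 4 members, as the rule requires.

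Among the remaining members, Cep85l, a centrosomal protein, had the highest normalised counts of the set: 3702, 1408 and 4064 in mKD muscle, against 1386, 1259 and 1230 in WT muscle. mKD library 2 was level with the WT libraries, and the log2 fold change was 0.13 without mKD libraries 1 and 3, beside 1.10 (SE 0.36). Evi2a, a membrane protein encoded within an intron of Nf1, had 71.8, 80.7 and 84.4 in mKD muscle, against 0, 33.1 and 69.7 in WT muscle, so that its difference rests on WT libraries 1 and 2. Kazn, a cytoskeletal protein linked to desmosomes, had 209, 68.6 and 69.4 in mKD muscle, against 49.1, 44.1 and 55.8 in WT muscle. Tmem176a, Tmc6, a protein of the transmembrane channel-like family, and Morn4 had ratios of 2.02, 2.21 and 1.94.

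Some of the 61 rows are nearly or fully the same in sequence as other genes. The longest transcript of Gm9843 is identical over all of its 402 nt to Fau, which encodes a ubiquitin-like protein fused to ribosomal protein S30. Gm9843 had 463, 313 and 290 normalised counts in mKD muscle, against 79.2, 215 and 256 in WT muscle, while Fau had 3535, 3570 and 2654 in mKD muscle, against 1742, 2177 and 2270 in WT muscle. Both were higher in mKD muscle, and reads of one cannot be assigned over the other within the shared stretch.

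Gm9774 matched Adrm1, the ubiquitin receptor of the proteasome, at 99.8% of 1358 aligned bases, and Gm10076 matched Rpl41, a ribosomal protein gene, at 99.5% of 383. The positions that separate them are shown as 21-base stretches of the GENCODE transcripts, 5′ to 3′, with the differing base in capitals. Within the aligned stretches, a read that covers none of these positions is shared by both genes.
Gm9774 at mismatch 1: cgtgccggcaTggccaggagg
Adrm1 at mismatch 1: cgtgccggcaGggccaggagg
Gm9774 at mismatch 2: gcagatgagaGccagaacaca
Adrm1 at mismatch 2: gcagatgagaTccagaacaca
Gm9774 at mismatch 3: ccctctcatgAgccagttcgg
Adrm1 at mismatch 3: ccctctcatgTgccagttcgg
Gm10076 at mismatch 1: taagccagccTgtgcacctac
Rpl41 at mismatch 1: taagccagccCgtgcacctac
Gm10076 at mismatch 2: gacctggaacAtcacctcgcc
Rpl41 at mismatch 2: gacctggaacGtcacctcgcc

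Gm9774 (chromosome 3) had 168, 159 and 136 normalised counts in mKD muscle, against 45.9, 88.3 and 112 in WT muscle, and Adrm1 (chromosome 2) was 1.35 times higher in mKD muscle. Gm10076 (chromosome 14) had 127, 97.7 and 79.8 in mKD muscle, against 31.7, 37.1 and 65.1 in WT muscle, and Rpl41 (chromosome 10) was 1.29 times higher. RefSeq lists these 3 loci and BC025920 as pseudogenes, although the deposited table calls all 61 members protein coding. Rnaset2a is 99.1% identical over its whole length to Rnaset2b, which was 1.34 times higher in mKD muscle. Acat2 shares 97.7% identity over 1477 bases with Acat3, which had no reads in 5 of the 6 libraries. Pcgf1 shares 97.5% over 764 bases with the processed pseudogene Gm8930, and Cd9 shares 91.1% over 665 bases with Cd9-ps. Neither of these copies is among the genes measured.

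A further group shared exons with neighbours on the same strand. Gm21981 joins exons of Tomm6 and Prickle4 (31.6% and 41.3% of its exonic bases). It had 666, 879 and 737 normalised counts in mKD muscle, against 207, 480 and 276 in WT muscle, while Tomm6 itself had 583, 492 and 320 in mKD muscle, against 241, 409 and 717 in WT muscle, where the groups overlapped. Gm29394 shares 38.7% of its exonic bases with 9130401M01Rik and 38.2% with Zhx1, and Evi2a shares 19.2% with Evi2. On the opposite strand several members overlap other genes, among them Stx18 with Nsg1 and BC025920 with Gm26896 (61.7% of its exonic bases). H2-DMa shares 10.4% of its exonic bases with Brd2, which had 1727 to 2115 normalised counts over the 6 libraries. Rad9a shares 9.53% with Ppp1ca, which had 3624 to 4615. The library kit keeps strand, but the sources used here do not say whether the counting used it.

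The clone-named 2310039H08Rik had 564, 467 and 363 normalised counts in mKD muscle, against 246, 209 and 256 in WT muscle. BC025920, near the lower limit of the rule, had 154, 182 and 129 in mKD muscle, against 88.7, 95.3 and 80.0 in WT muscle.

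Only 6 of the 61 members stood on the 32 pathway and cell type lists used here, and 27 lists held none. The counts given for the 5 lists include these members, which the rule chose as higher. They stand against the 8.31% of all genes that were higher and the 9.51% that were lower at the 1.2-fold threshold. None of the genes named from the lists passed an adjusted p under 0.05 by limma.

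The ATF4 and stress response list, which holds Psat1, had 5 of its 28 tested genes higher, Psat1 among them, and 0 lower, with a median log2 fold change of 0.35. Atf4, the transcription factor of the integrated stress response, had 5439, 5120 and 5429 normalised counts in mKD muscle, against 2815, 3953 and 3990 in WT muscle. Chac1, an enzyme that degrades glutathione, had 1988, 2228 and 1451 in mKD muscle, against 521, 541 and 1696 in WT muscle, where WT library 3 stood within the mKD range. Pycr1, the last enzyme of proline synthesis, and Herpud1, a protein of endoplasmic reticulum degradation, were higher by 0.69 (SE 0.29) and 0.42 (SE 0.11) on the log2 scale.

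On the polyamine list, which holds Azin2, 4 of 11 tested genes were higher, Azin2 among them, and 0 lower, with a median log2 fold change of 0.15. Odc1, ornithine decarboxylase, had 1054, 1295 and 1202 normalised counts in mKD muscle, against 809, 813 and 986 in WT muscle. Paox and Smox, which oxidise polyamines, were higher by 0.45 (SE 0.16) and 0.37 (SE 0.16) on the log2 scale. Every mKD library lay above every WT library in Odc1, Paox and Smox, which were named because they passed the 1.2-fold threshold. The same held for 12.1% of all genes tested.

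On the list of fatty acid oxidation and PPAR targets, which holds Ucp2, 2 of 41 tested genes were higher, both of them members, and 1 was lower. The lower gene was Ehhadh, the peroxisomal bifunctional enzyme, with a log2 fold change of -0.52 (SE 0.20), and the median of the list was 0.19. Acot3, Cyp4a14 and Cyp4a10, known as PPARα targets, had no reads in any library.

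The matrix and collagen list, which holds Mfap5, ran the other way. Of its 32 tested genes 2 were higher (Mfap5 and Eln, elastin) and 13 lower, among them Col3a1, Col6a1 and Fbn1, with a median log2 fold change of -0.52. Eln had 482, 594 and 541 normalised counts in mKD muscle, against 364, 352 and 371 in WT muscle.

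The Schwann cell and myelin list, which holds Sncg, had 6 of 30 tested genes higher, Sncg among them, and 0 lower, with a median log2 fold change of 1.36. Mal, a proteolipid of compact myelin, had 1315, 51.6 and 516 normalised counts in mKD muscle, against 47.5, 89.3 and 35.3 in WT muscle, and its log2 fold change of 2.60 (SE 1.04) turned to -0.04 without mKD libraries 1 and 3. Mag, the myelin-associated glycoprotein, had 179, 13.7 and 91.9 in mKD muscle, against 11.1, 18.1 and 12.1 in WT muscle. In both, mKD library 2 lay within the WT range.

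The members tended to be short. Their longest annotated transcripts ran over 384 to 8639 nt with a median of 2544 nt, against 3480 nt for all genes tested, and 31.1% were under 2000 nt, against 19.5%. With the trend of each library over transcript length removed, the median log2 fold change of the members was 0.98 and the smallest 0.56, and the value was smaller than before in 42 of the 61. The even members had a median length of 2289 nt and the uneven members of 3362 nt.

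Members lay on 17 of the chromosomes. Chromosome 6 held 7 of them (11.5%, against 5.01% of the tested genes). Chromosomes 17 and 19 held 6 each (9.84%, against 4.77% and 3.52%). None lay on chromosomes 1, 13 and 18, which hold 5.81%, 3.62% and 2.63% of the tested genes. Hyal2 and Sema3b are 24.9 kb apart on chromosome 9 (107567945 to 107572779 and 107597674 to 107609229, GRCm38). In this gene-dense stretch Rassf1, Tusc2, Nat6 (Naa80 in the annotation) and Ifrd2, picked after their values were seen, were also higher at the 1.2-fold threshold. Their log2 fold changes were 0.53 (SE 0.17), 0.52 (SE 0.12), 0.63 (SE 0.16) and 0.48 (SE 0.12). Hyal1 between them had -0.97 (SE 0.49) and Gnai2 beside them -0.09 (SE 0.10), and neither passed. Farther out on either side, Cacna2d2, Tmem115, Cyb561d2, Nprl2, Slc38a3, Sema3f, Rbm5 and Rbm6 did not pass. Over all genes tested, 8.31% were higher at that threshold. Tusc2 had 1187, 1353 and 1219 normalised counts in mKD muscle, against 776, 910 and 938 in WT muscle, and Ifrd2 had 1305, 1257 and 1257 in mKD muscle, against 794, 1007 and 959 in WT muscle. Unlike Sema3b, both were level over the mKD libraries.

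Pcgf1 lies 282 kb from Tet3 on chromosome 6 (83077869 to 83080855, against 83362373 to 83459084 for Tet3). Of the 27 other genes tested within 1 Mb of Tet3, 4 were higher at the 1.2-fold threshold, 0 were lower and 23 did not pass. Over all genes tested, 8.31% were higher and 9.51% lower. The 4 include Pcgf1, which the rule chose as higher. Another of the 4 was Aup1, picked after its values were seen, a protein of lipid droplets and the endoplasmic reticulum. Aup1 had 1513, 1556 and 1547 normalised counts in mKD muscle, against 980, 1223 and 1131 in WT muscle. Other pairs of members on 1 chromosome were farther apart: Cytl1 and Stx18 by 299 kb and Ptms and Cd9 by 540 kb.

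Since Tet3 acts on methylated CpG, the CpG content of the promoters was described. DNA methylation was not analysed here. RefSeq promoters (250 bases before to 50 bases after a start, GRCm38.p6) matched 43 of the 61 members, some with several starts, 63 promoters in all. They held a median of 18 CpG, against 20 in the 12319 promoters of genes tested and 7 in all 32851 promoters of the table. Under 5 CpG were found in 14.3% of the members' promoters, against 9.91% of the tested genes' and 38.0% of all promoters, and 20 or more in 44.4%, against 52.2% and 26.5%.

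**Figure D5:**
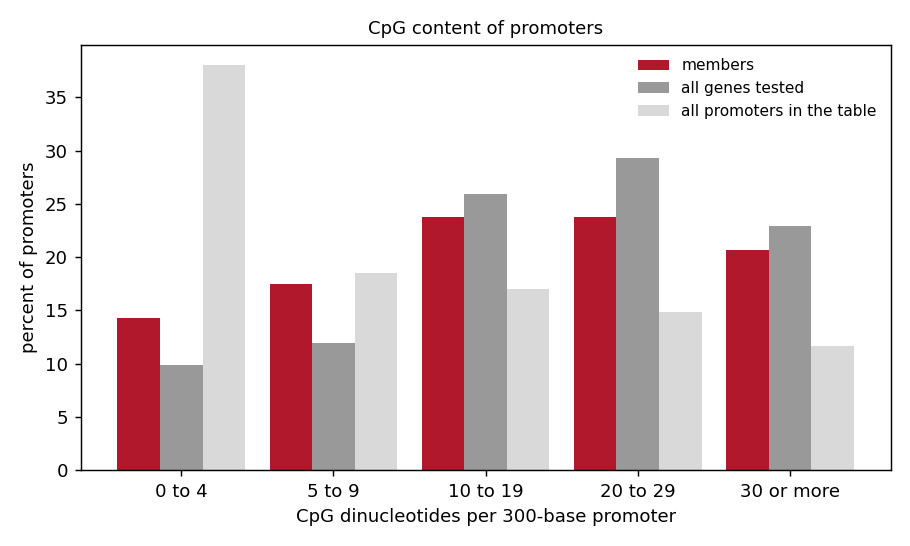
Percent of 300-base promoters (y axis) by number of CpG dinucleotides (x axis) for the 63 promoters of members (red), the 12319 promoters of all genes tested (grey) and all 32851 promoters of the table (light grey). The members' promoters spread over all classes, with 14.3% under 5 CpG.

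The range is shown by 4 of the members with 1 listed start and a ratio above 2.4, 2 with many CpG and 2 with few, with each CpG in capitals and every sequence written 5′ to 3′ on the strand of the gene. Il6ra has 25 CpG in this window and Mcfd2 has 30, while Adig has 3 and Inmt has 0.
Il6ra (chr3:89913147-89913446, - strand): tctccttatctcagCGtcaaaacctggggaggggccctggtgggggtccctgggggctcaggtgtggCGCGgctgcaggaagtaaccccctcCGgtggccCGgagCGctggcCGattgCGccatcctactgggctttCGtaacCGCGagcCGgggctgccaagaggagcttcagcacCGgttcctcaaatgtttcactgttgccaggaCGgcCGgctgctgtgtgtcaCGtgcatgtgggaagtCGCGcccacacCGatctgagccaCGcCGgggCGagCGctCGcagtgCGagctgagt
Mcfd2 (chr17:87265898-87266197, - strand): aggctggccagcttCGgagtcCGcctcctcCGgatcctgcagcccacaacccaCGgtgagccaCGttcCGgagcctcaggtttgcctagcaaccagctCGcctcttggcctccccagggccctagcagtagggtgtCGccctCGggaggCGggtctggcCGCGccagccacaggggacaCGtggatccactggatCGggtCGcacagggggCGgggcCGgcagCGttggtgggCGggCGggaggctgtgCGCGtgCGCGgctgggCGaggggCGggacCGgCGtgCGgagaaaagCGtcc
Adig (chr2:158502362-158502661, + strand): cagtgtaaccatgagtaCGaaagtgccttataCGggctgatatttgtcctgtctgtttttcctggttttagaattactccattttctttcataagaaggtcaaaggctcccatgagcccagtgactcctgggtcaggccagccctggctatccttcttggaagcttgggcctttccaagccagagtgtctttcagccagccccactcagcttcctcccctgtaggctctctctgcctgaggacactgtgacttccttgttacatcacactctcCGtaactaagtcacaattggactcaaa
Inmt (chr6:55174941-55175240, - strand): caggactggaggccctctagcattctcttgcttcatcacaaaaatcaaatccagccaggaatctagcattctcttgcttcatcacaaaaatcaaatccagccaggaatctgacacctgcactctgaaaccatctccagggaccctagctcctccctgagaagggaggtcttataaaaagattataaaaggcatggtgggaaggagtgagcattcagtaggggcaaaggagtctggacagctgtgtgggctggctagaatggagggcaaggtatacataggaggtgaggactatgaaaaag

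Short motifs were counted on both strands as a description. The GC box GGGCGG was in 55.6% of the members' promoters, against 62.2% of those of tested genes and 35.7% of all promoters. The E-box CACGTG, the core of which is itself a CpG, was in 9.52%, against 9.91% and 7.15%, and was found in Il6ra, Mcfd2 and Mettl1 among others. CCAAT was in 27.0%, against 37.1% and 37.4%. The TATA motif TATAAA was in 6.35%, against 7.26% and 13.6%, and Inmt is one of its 4 promoters among the members. The cAMP response element TGACGTCA was in 0 of the 63 promoters, against 2.97% and 1.79%.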

How the data were processed

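RNA of GAS muscle from 3 mKD and 3 WT mice was sequenced by the authors from strand-keeping poly(A) libraries and processed in Partek Flow on GRCm38 (mm10), with the aligner and the counter not given in the sources used here. Deposited values are a signal made by the authors: read counts per gene divided by a size factor per library. Whole reads were recovered by dividing by the smallest positive value (100% whole within 0.0001). Columns of the authors' means, fold changes and p-values were not used.

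limma 3.58.1 (R 4.3.3) was fitted to log2(value + 1) with genotype as the only term. The added 1 shrinks fold changes of low genes, but a WT library at 0 can enlarge them. Evi2a, for example, had a log2 fold change of 2.57 at a ratio of means of 2.30. The fit covered the 12322 genes that passed the edgeR filter on low counts. p-values were adjusted over all of them (Benjamini-Hochberg). Alternatives were edgeR 4.0.16 and DESeq2 1.42.0 on the recovered reads, other pseudocounts, filters and scalings, removal of each library's trend over transcript length, and fewer libraries. The fit was tested on simulated counts. Gene models were GENCODE M21 (99.7% of gene IDs matched). Near copies had at least 90% identity over at least 50% of a member's longest transcript.

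The members, lists and tests were chosen with earlier results of these data known. Genes named by rule were Tet3, the members with the largest ratios, the highest levels or the most and least even mKD levels, those on a list, and those next to each limit of membership; the rest were named after their values were seen. Nothing ties mice of 1 number in both groups to a litter or day, and their deviations did not correlate (0.055, -0.051 and -0.076 for numbers 1, 2 and 3). Of the members 1 is, like some genes beside the limits and on the lists, not reported here by name.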

Additional observations from a re-analysis of the deposited data

How the results depend on the processing

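The choice of members fixes a positive sign in most alternatives, so the sign is no sign of stability. The smallest log2 fold change of a member was 0.13 (Cep85l, without mKD replicates 1 and 3), and the median was 0.90 to 1.19 when single libraries were left out. The number of genes meeting the rule was 210 at a ratio of 1.5, 36 at a ratio of 2, 100 at a mean of 20 and 24 at a mean of 200. Leaving out 1 library gave 59 to 249 genes: 59 without mKD 1 (31 of them members), 249 without mKD 2 (53), 107 without mKD 3 (54), 97 without WT 1 (46), 110 without WT 2 (53) and 173 without WT 3 (55), where fewer libraries have to be in order. Removing the length trend gave 61 genes, 40 of them members. Without mKD replicates 1 and 3, chosen after seeing the data, 175 genes met the rule with 24 members, limma gave 4 genes with an adjusted p under 0.05 and 459 higher at 1.2-fold, and 17 members passed the 1.2-fold threshold. The single mKD library left was there assumed to vary like the WT libraries.

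The 2 genes called by limma at an adjusted p under 0.05 became 535 with DESeq2 (26 members), 0 with the length trend removed and 0 to 4 when single libraries were left out (0 to 1 members). The 1024 genes higher at 1.2-fold became 621 with the length trend removed and 581 to 1111 when single libraries were left out, with 581 without mKD 1. The members past that threshold were then 40 to 57. Of the values of single genes, that of Mal turned to -0.041 without mKD replicates 1 and 3. The causes were not tested. With the replicate number as a block, limma gave 0 genes with an adjusted p under 0.05 and 778 higher at 1.2-fold, 58 of them members. The numbers do not pair the mice.

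Having 3 mice a group and few reads on the 25 members with a mean under 100 limits what these levels can show.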
